A study of Mus musculus with 30 samples.

Results

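B2m, the MHC class I heavy chain genes H2-K1 and H2-D1, the peptide transporter gene Tap1 and a group of interferon-induced genes (Irf7, Isg15, Ifit1, Ifit3 and Bst2) were followed in the forebrain of 30 male C57BL mice. The members were all probe sets of the array whose annotated symbol is exactly 1 of these 9 gene symbols. This gave 23 of the 22626 probe sets that are not array controls, for 8 of the 9 genes: 2 for B2m, 4 for H2-K1, 9 for H2-D1, 4 for Tap1, and 1 each for Irf7, Ifit1, Ifit3 and Bst2. Isg15, which encodes a ubiquitin-like protein, gave no member, because its 1 probe set is annotated to a pseudogene as well. Probe sets annotated to H2-K1 or H2-D1 together with other symbols, 2 counted for each gene, were also left out.

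The clozapine group was 10 mice given 12 mg/kg/day of this atypical antipsychotic, the haloperidol group was 10 mice given 1.6 mg/kg/day of this typical antipsychotic, and the control group was 10 mice given no drug. Each drug was dissolved in the drinking water over a period of 12 weeks, all mice were housed singly, and each mouse had an Affymetrix MOE430A array of its own with no pooling. The labels give an age of 4 weeks for all groups, which cannot be the age after 12 weeks of treatment, and they name the right hemisphere in one place and the left in another. The protocol of the haloperidol mice names clozapine beside the dose. The study set the drugs beside each other for their effects on brain gene expression after long treatment. The forebrain markers Ppp1r1b and Neurod6 averaged 8.65 and 8.04 on the log2 scale.

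Class I molecules consist of a heavy chain, encoded in these mice by H2-K1 and H2-D1, and the light chain beta-2-microglobulin, encoded by B2m. They present peptides that the transporter Tap1 and its partner bring into the endoplasmic reticulum, and in the brain they are found on endothelium and microglia and at lower levels on neurons. Interferons act through receptors, Jak kinases and Stat and Irf factors to raise class I genes and a large set of antiviral genes. Among these, Irf7 is a transcription factor that amplifies the type I response. Ifit1 binds foreign RNA, Ifit3 is of the same family, and Bst2 (tetherin) holds budding viruses at the cell surface.

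The promoters of the most strongly measured genes and of Ifit1, a gene near background with the same motif as Ifit3, are shown to set their interferon and NF-kappaB motifs beside the values that follow. They are RefSeq sequences on GRCm38.p6, each the 250 bases before the annotated start, at chr2:122147437-122147686 (plus strand) for B2m, chr17:35262844-35263093 (plus strand) for H2-D1, chr17:34000334-34000583 (minus strand) for H2-K1, chr19:34583279-34583528 (plus strand) for Ifit3 and chr19:34640639-34640888 (plus strand) for Ifit1. Capitals mark matches, on either strand, to the core of the interferon-stimulated response element (ISRE; GAAA, any 2 bases, GAAA) or to an NF-kappaB motif (GGGA, any 4 bases, CC).
B2m: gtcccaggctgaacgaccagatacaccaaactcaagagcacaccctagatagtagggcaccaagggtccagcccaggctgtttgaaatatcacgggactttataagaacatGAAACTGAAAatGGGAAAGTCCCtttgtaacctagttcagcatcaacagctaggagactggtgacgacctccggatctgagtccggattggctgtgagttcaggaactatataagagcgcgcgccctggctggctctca
H2-D1: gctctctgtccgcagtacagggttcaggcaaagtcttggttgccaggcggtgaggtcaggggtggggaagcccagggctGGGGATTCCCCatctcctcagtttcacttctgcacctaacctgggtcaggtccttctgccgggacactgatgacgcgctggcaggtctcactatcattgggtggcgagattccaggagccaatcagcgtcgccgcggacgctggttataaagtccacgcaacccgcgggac
H2-K1: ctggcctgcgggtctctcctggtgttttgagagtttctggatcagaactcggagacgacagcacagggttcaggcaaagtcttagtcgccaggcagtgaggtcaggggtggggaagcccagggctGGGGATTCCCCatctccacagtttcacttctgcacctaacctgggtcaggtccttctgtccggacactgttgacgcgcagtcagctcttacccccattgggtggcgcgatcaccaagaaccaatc
Ifit3: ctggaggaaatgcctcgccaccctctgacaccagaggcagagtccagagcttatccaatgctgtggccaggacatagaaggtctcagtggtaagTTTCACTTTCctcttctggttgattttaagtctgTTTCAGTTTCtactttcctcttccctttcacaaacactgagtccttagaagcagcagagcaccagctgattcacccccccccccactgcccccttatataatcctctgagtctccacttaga
Ifit1: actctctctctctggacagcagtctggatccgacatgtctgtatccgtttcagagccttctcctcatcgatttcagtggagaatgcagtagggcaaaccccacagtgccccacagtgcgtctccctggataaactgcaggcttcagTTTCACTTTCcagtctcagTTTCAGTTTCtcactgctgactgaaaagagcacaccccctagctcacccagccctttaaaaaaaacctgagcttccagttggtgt

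RefSeq promoters of 300 bases, the last 50 of them after the start, were found for all 9 genes. The ISRE core was matched in 5 of them, B2m, Ifit1, Ifit3, Bst2 and Isg15, while 3.44% of all 32851 promoters of this length hold it. The B2m promoter has 1 such match, beginning 139 bases before the start, followed by overlapping NF-kappaB matches on both strands from 127 bases before it. The Ifit3 promoter has 2 ISRE matches, at 156 and 122 bases before the start, and the Ifit1 promoter has 2 with the same letters, at 104 and 85 bases. The H2-D1 and H2-K1 promoters each hold an NF-kappaB match on both strands with the same letters, and their longest identical stretch was 47 bases, against 13 bases between Ifit1 and Ifit3. The NF-kappaB motif is common, in 20.7% of all promoters. The gamma-activated site (TTC, any 3 bases, GAA), found in 8.30% of promoters, was matched in Bst2 alone among the 9 genes. A match is a description of the letters, not of a bound site. Only exact matches to each pattern were sought. The lack of an ISRE match in H2-D1, H2-K1, Tap1 and Irf7 does not show that interferon elements are absent there.

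The forebrain gave a clear signal for the class I chains and for Ifit3, and almost none for Tap1, Irf7, Ifit1 and Bst2. B2m was the member with the highest values: its probe sets 1452428_a_at and 1449289_a_at averaged 10.03 and 9.97 on the log2 scale of the array values over all 30 mice, above 94.0% and 93.7% of all probe sets. H2-D1 averaged 9.08 with 1425545_x_at and 8.84 with 1451784_x_at, and H2-K1 averaged 7.43, 7.27 and 6.67 with 1425336_x_at, 1451931_x_at and 1427746_x_at. Ifit3 averaged 6.38 with its only probe set, 1449025_at. Values of different probe sets depend on their probes and do not rank amounts of RNA.

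Differences were tested on probe sets with a mean log2 value of at least 4, which 10 of the 23 members and 12944 of all 22626 probe sets had. The 10 are the 2 of B2m, 3 of H2-K1, 4 of H2-D1 and the 1 of Ifit3. The member just inside this limit was H2-D1 1426324_at, at 4.68, and the member just outside was H2-K1 1450534_x_at, at 3.85. Probe sets whose identifiers end in _x_at hold probes that can bind related transcripts, so H2-K1 and H2-D1 cannot be fully separated from each other or from other class I genes. The Ifit3 probe set may also bind Ifit3b, a closely related neighbouring gene.

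**Figure D1:**
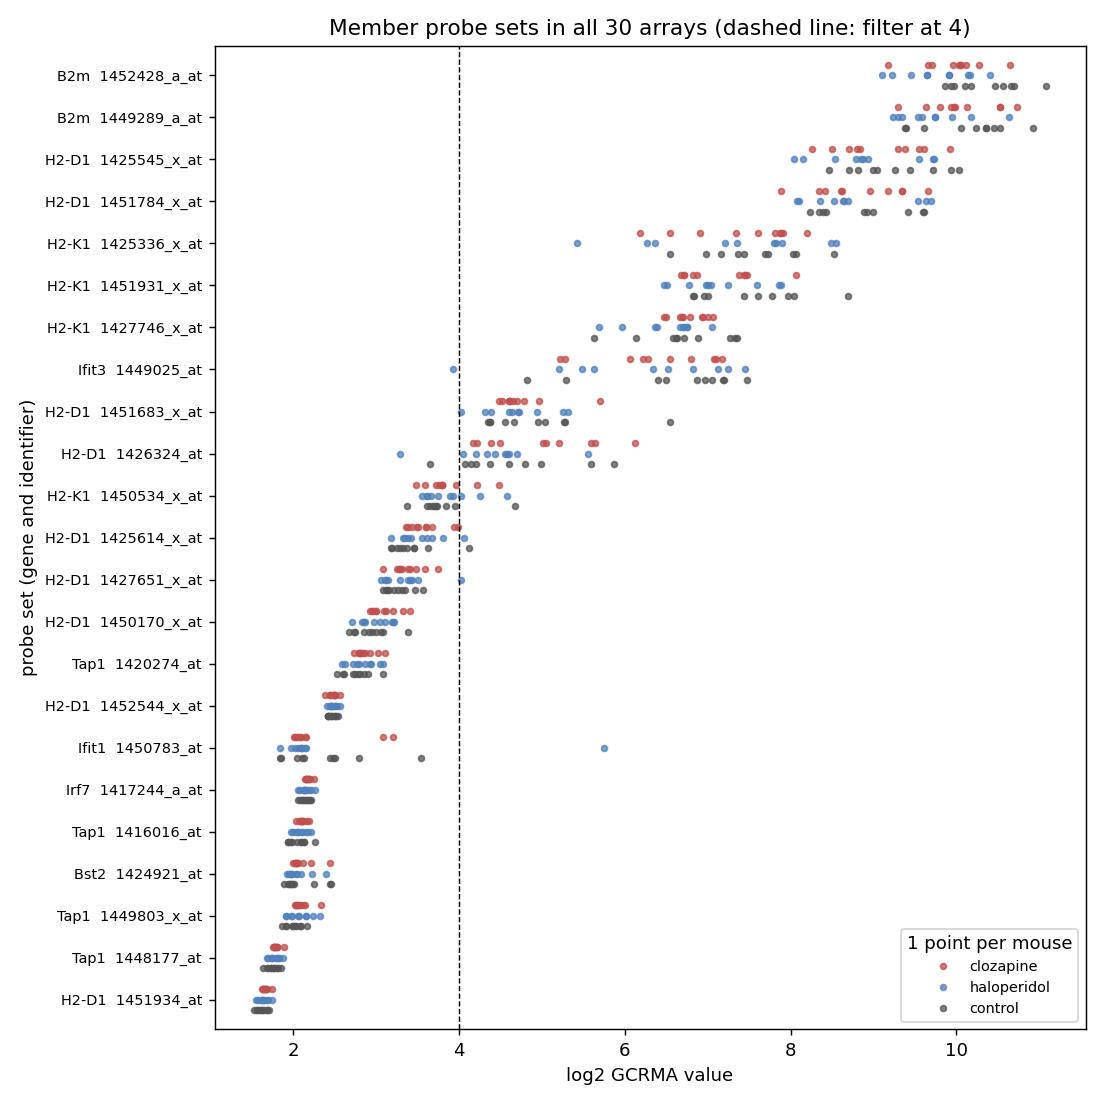
Log2 array value (x axis) of each of the 23 member probe sets (y axis, ordered by mean), with 1 point per mouse and the clozapine, haloperidol and control groups as rows from top to bottom within each probe set. The dashed line marks the limit of 4, which 10 probe sets exceed on average, and the Ifit1 value of 5.75 in haloperidol mouse 7 stands away from the other Ifit1 values.

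The other 13 member probe sets lay near background. Tap1 averaged between 1.77 and 2.83 in its 4 probe sets, Irf7 averaged 2.16, Bst2 2.09 and Ifit1 2.36. The remaining H2-D1 probe sets averaged between 1.64 and 3.52, and the remaining one of H2-K1 averaged 3.85. Irf7 1417244_a_at ranged from 2.14 through a median of 2.17 to 2.25 in clozapine mice, from 2.06 through 2.14 to 2.26 in haloperidol mice and from 2.06 through 2.15 to 2.22 in controls. These ranges overlap, with 9 of 10 clozapine mice and 5 of 10 haloperidol mice above the control mean of 2.14. Bst2 1424921_at ranged from 1.996 to 2.45, with a median of 2.05, in clozapine mice, from 1.93 to 2.40, with a median of 2.02, in haloperidol mice and from 1.89 to 2.46, with a median of 1.99, in controls. Tap1 1420274_at, the highest of the Tap1 probe sets, had medians of 2.83 in clozapine mice, 2.83 in haloperidol mice and 2.77 in controls.

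What these low values followed was the background of each array. Across the 30 arrays, the Tap1 probe set 1420274_at correlated with the array's median over all probe sets under the limit with r = 0.985, and Irf7 with r = 0.863. Among the 13 members under the limit this r lay between 0.583 and 0.985 for 12, and was -0.098 for Ifit1, while for the 10 tested members it lay between -0.374 and 0.219. Arrays share their background across all probe sets, so these values are given as a description. Ifit1 was listed between 1.84 and 3.54 in 29 mice and at 5.75 in haloperidol mouse 7, whose RNA quality measure was also far from the rest.

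**Figure D2:**
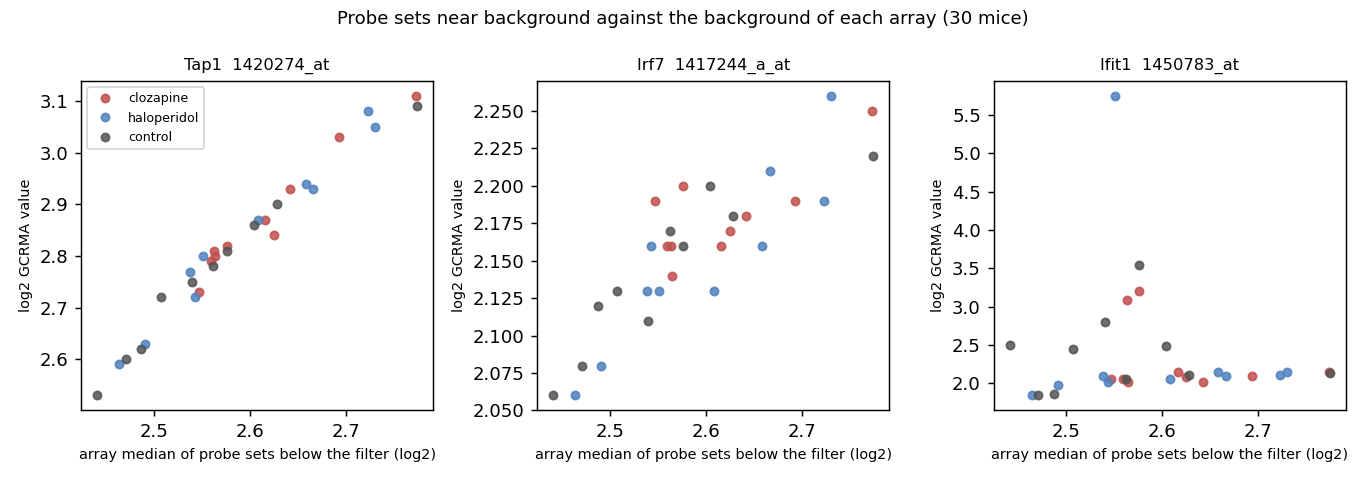
Log2 value of Tap1 1420274_at, Irf7 1417244_a_at and Ifit1 1450783_at (y axes) against the median log2 value of all probe sets under the limit on the same array (x axes), 1 point per mouse, coloured by clozapine, haloperidol and control. Tap1 (r = 0.985) and Irf7 (r = 0.863) rise with the background of the array, and Ifit1 (r = -0.098) stays near 2 apart from a few arrays, the highest at 5.75.

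The arrays differed within groups, and their RNA quality differed between groups as well. The difference between the 3' and 5' controls for Gapdh and Actb grows with RNA degradation. It lay between 0.624 and 1.24 in clozapine mice, between 0.470 and 2.45 in haloperidol mice and between 0.468 and 4.09 in controls. Its medians were 0.877 in clozapine, 0.562 in haloperidol and 0.672 in control mice, so RNA quality was not balanced between the groups. Clustering by correlation over the tested probe sets, without the group labels, gave cluster A of 11 arrays (3 clozapine, 5 haloperidol and 3 control, all with replicate numbers 1 to 6 in the labels), cluster B of 16 arrays (7 clozapine, 3 haloperidol and 6 control), a pair formed by haloperidol mouse 7 and control mouse 1, and haloperidol mouse 2 alone. The clusters were made from the tested probe sets, the members included, so member levels by cluster are a description only. B2m 1452428_a_at averaged 9.74 ± 0.354 in cluster A and 10.20 ± 0.384 in cluster B (SD, n = 11 and 16). H2-D1 1425545_x_at averaged 8.66 ± 0.388 in cluster A and 9.25 ± 0.494 in cluster B. Ifit3 averaged 6.74 ± 0.661 in cluster A and 6.22 ± 0.824 in cluster B. These differences were not compared with those of other probe sets. Selected comparisons are given within clusters, within replicate numbers 1 to 6 and 7 to 10, and without the 3 outlying arrays as well.

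Among mice of the same treatment, Ifit3 and 1 probe set of H2-K1 had the highest SD of the tested members. The SD within groups was 0.909 for Ifit3, above 91.2% of all tested probe sets, and 0.779 for H2-K1 1425336_x_at, above 87.2%. B2m 1452428_a_at had an SD of 0.406, close to the median of 0.435 over all tested probe sets. The other H2-K1 probe sets had 0.535 (1451931_x_at, above 67.9%) and 0.412 (1427746_x_at, above 44.7%), and those of H2-D1 lay between 0.495 and 0.646.

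No member passed the test in clozapine against control mice, and B2m was the member with the smallest p. B2m 1452428_a_at ranged from 9.18 in clozapine mouse 9 through a median of 10.03 to 10.65 in clozapine mice, and from 9.86 through a median of 10.32 to 11.08 in controls. The groups overlap over most of their range, with 9 of 10 clozapine mice below the control mean. The means were 9.97 ± 0.391 in clozapine mice and 10.35 ± 0.400 in controls (SD, n = 10 each). The difference of -0.38 (SE 0.181) on the log2 scale corresponds to 0.767-fold, with a 95% interval from 0.594 to 0.990-fold. Its unadjusted p of 0.0420 gave an adjusted p of 0.9997 in limma over all 12944 tested probe sets, and the permutation p of this single value was 0.0438 (two-sided, unadjusted). The second B2m probe set, 1449289_a_at, averaged 10.05 ± 0.443 in clozapine mice and 10.13 ± 0.517 in controls, a difference of -0.08 (SE 0.205). Its difference turned over the mice, with -0.35 among numbers 1 to 6, 0.325 among numbers 7 to 10, -0.22 within cluster A and 0.11 within cluster B. For 1452428_a_at these were -0.33, -0.46, -0.23 and -0.35, so the probe sets of this gene did not show the same difference. The correlation of both B2m probe sets across mice, after the group means were removed, was r = 0.556.

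The heavy chains differed from controls by less than the spread between mice. H2-D1 1425545_x_at ranged from 8.26 through a median of 9.07 to 9.92 in clozapine mice and from 8.46 through 9.15 to 10.03 in controls. Its difference was -0.15 (SE 0.242). H2-K1 1425336_x_at ranged from 6.18 through 7.71 to 8.20 in clozapine mice and from 6.55 through 7.57 to 8.52 in controls, with a difference of -0.13 (SE 0.334). The other heavy chain probe sets differed by between -0.36 (H2-K1 1451931_x_at, SE 0.233) and 0.36 (H2-D1 1426324_at, SE 0.279). The last of these was uneven over the mice: it averaged 5.64 in clozapine mice and 4.62 in controls among numbers 7 to 10, and 4.55 in clozapine mice and 4.64 in controls among numbers 1 to 6.

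Ifit3 1449025_at ranged from 5.22 through a median of 6.42 to 7.17 in clozapine mice and from 4.82 through 6.92 to 7.47 in controls. The difference of -0.20 (SE 0.389) is smaller than the spread between mice. It was not the same over the mice: Ifit3 averaged 6.43 in clozapine mice and 7.05 in controls among numbers 1 to 6, and 6.29 in clozapine mice and 5.87 in controls among numbers 7 to 10.

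Of all 12944 probe sets, 0% passed the adjusted threshold in clozapine against control mice, and 563 (4.35%) had an unadjusted p under 0.05, of which 1 was a member. The members' differences were negative in 8 of 10, with a median of -0.14, where 44.7% of all tested probe sets were negative and their median was 0.02. Without the 3 outlying arrays, 5 of 10 were negative and the median was -0.01, and with the clusters as a block 6 of 10 were negative.

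**Figure D3:**
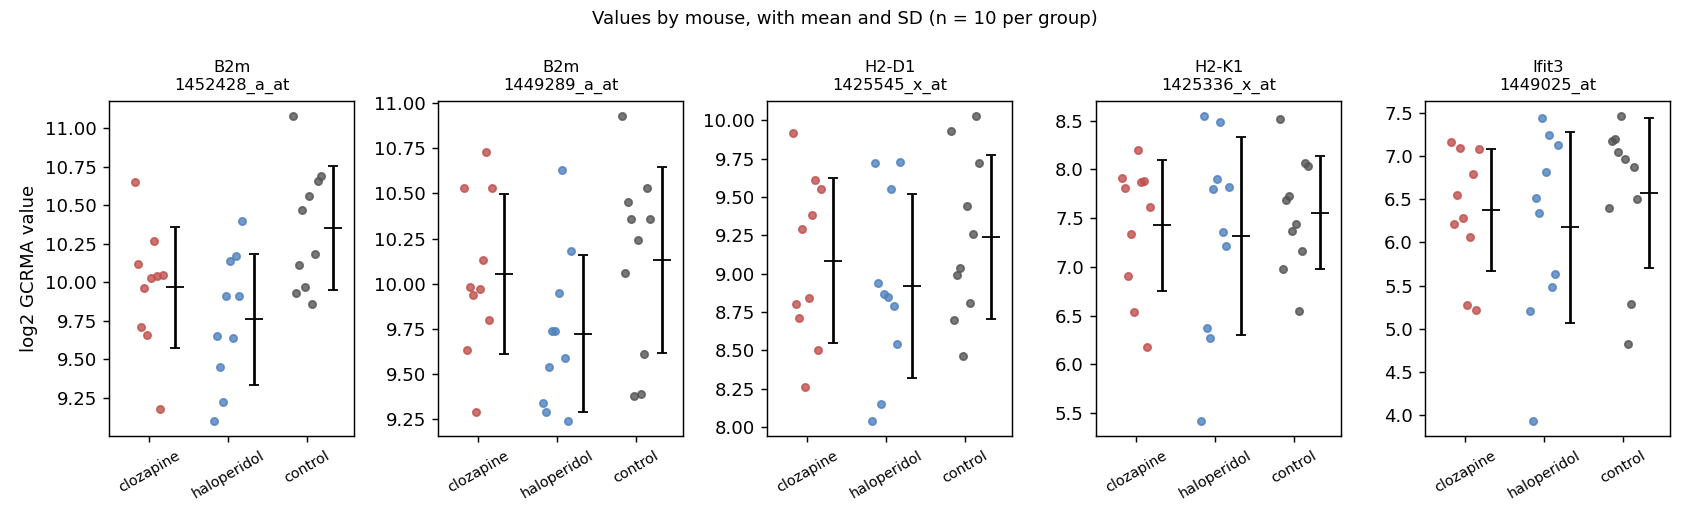
Log2 array values (y axes) of both B2m probe sets and of the highest probe sets of H2-D1, H2-K1 and Ifit3, 1 point per mouse, in clozapine, haloperidol and control mice (left to right). Bars show the mean and SD of 10 mice, and the groups overlap in all 5 panels, with B2m 1452428_a_at at 9.97, 9.76 and 10.35 on average.

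All 10 tested members were lower on average in haloperidol than in control mice, and none passed the adjusted test. B2m 1452428_a_at ranged from 9.10 in haloperidol mouse 1 through a median of 9.78 to 10.40 in haloperidol mice, against 9.86 through 10.32 to 11.08 in controls. The ranges overlap, but 9 of 10 haloperidol mice lay below the control mean. It averaged 9.76 ± 0.426 in haloperidol mice and 10.35 ± 0.400 in controls (SD, n = 10 each). The difference was -0.59 (SE 0.181), or 0.663-fold with a 95% interval from 0.514 to 0.856-fold. Its unadjusted p was 0.00261 and its adjusted p 0.9999 in limma, and the permutation p of the single value was 0.00517 (two-sided, unadjusted). In this comparison 298 of all 12944 probe sets (2.3%) had an unadjusted p under 0.05, of which 1 was a member, and 0% passed the adjusted threshold.

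The B2m difference kept its sign, but not its size, in each subset of mice examined. Among numbers 1 to 6 B2m 1452428_a_at averaged 9.58 in haloperidol mice and 10.36 in controls, and among numbers 7 to 10 it averaged 10.03 in haloperidol mice and 10.35 in controls. Within cluster A the means were 9.57 in 5 haloperidol mice and 10.01 in 3 controls, and within cluster B they were 10.16 in 3 haloperidol mice and 10.40 in 6 controls. The differences within clusters, -0.44 and -0.24, are smaller than the pooled one. The second probe set, 1449289_a_at, averaged 9.72 ± 0.436 in haloperidol mice and 10.13 ± 0.517 in controls, a difference of -0.41 (SE 0.205) with an unadjusted p of 0.0566 in limma. It was -0.64 among numbers 1 to 6, -0.06 among numbers 7 to 10, -0.30 within cluster A and -0.41 within cluster B.

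The heavy chains and Ifit3 had negative differences with intervals that include 0. H2-D1 1425545_x_at ranged from 8.04 through 8.86 to 9.73 in haloperidol mice and from 8.46 through 9.15 to 10.03 in controls. Its difference was -0.32 (SE 0.242), with a 95% interval from -0.82 to 0.17. H2-K1 1425336_x_at had its lowest value of all mice, 5.42, in haloperidol mouse 1 and its highest, 8.55, in haloperidol mouse 2, against 6.55 to 8.52 in controls. Its difference was -0.24 (SE 0.334), and that of H2-K1 1451931_x_at was -0.38 (SE 0.233). The other heavy chain probe sets differed by between -0.25 (H2-D1 1451683_x_at) and -0.09 (H2-D1 1451784_x_at). Ifit3 ranged from 3.93 in haloperidol mouse 2 through 6.43 to 7.45 in haloperidol mice and from 4.82 through 6.92 to 7.47 in controls, with a difference of -0.40 (SE 0.389). Like the clozapine difference, it turned over the mice, with 6.05 in haloperidol mice and 7.05 in controls among numbers 1 to 6, and 6.37 in haloperidol mice and 5.87 in controls among numbers 7 to 10. H2-K1 1425336_x_at turned as well, with 7.05 in haloperidol mice and 7.62 in controls among numbers 1 to 6, and 7.72 in haloperidol mice and 7.45 in controls among numbers 7 to 10. The H2-D1 differences were positive in cluster A for 1426324_at (0.17), 1451784_x_at (0.06) and 1451683_x_at (0.02), and among numbers 7 to 10 for 1426324_at (0.03). The comparisons of each drug with control use the same 10 controls, so a high or low control mean enters both.

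The members' median difference was -0.28 in haloperidol against control mice, where the median of all tested probe sets was -0.03 and 56.5% were negative. All 10 remained negative without the 3 outlying arrays, with a median of -0.33, and with the clusters as a block, with a median of -0.28. The 10 probe sets belong to 4 genes and correlate with each other, so they are not 10 independent measurements. In bulk tissue, fewer cells of a type and less RNA per cell cannot be told apart.

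**Figure D4:**
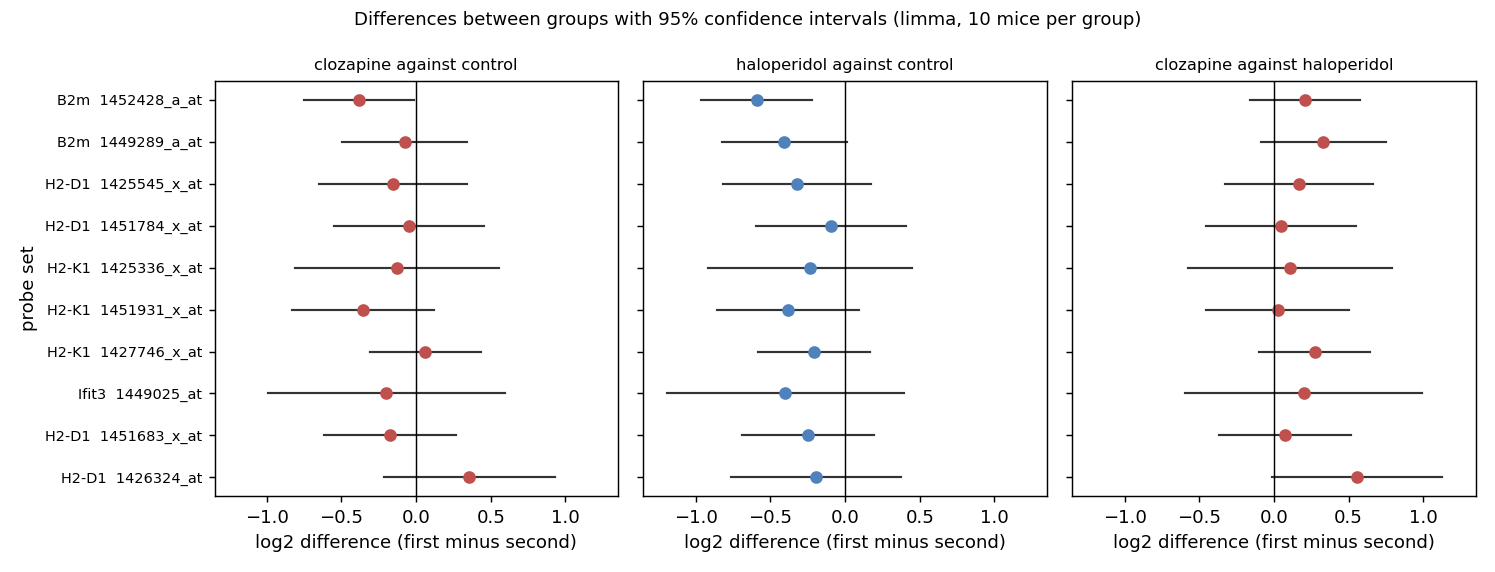
Log2 difference (x axis, first group minus second) of the 10 tested member probe sets (y axis) in clozapine against control, haloperidol against control and clozapine against haloperidol mice, with 95% confidence intervals from limma. In haloperidol against control mice all 10 points lie under 0, and only the interval of B2m 1452428_a_at (-0.96 to -0.22) leaves 0 out.

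Clozapine and haloperidol mice did not differ in any member by the adjusted test. All 10 differences were positive, with a median of 0.18 and values from 0.02 to 0.55, where 60.7% of all tested probe sets were positive and their median was 0.05. The smallest p was that of H2-D1 1426324_at, which ranged from 4.17 through 5.03 to 6.12 in clozapine mice and from 3.29 through 4.49 to 5.56 in haloperidol mice. It averaged 4.99 ± 0.666 in clozapine mice and 4.43 ± 0.569 in haloperidol mice (SD, n = 10 each). The difference was 0.55 (SE 0.279, unadjusted p = 0.0563, adjusted p = 0.965 in limma), and 7 of 10 clozapine mice lay above the haloperidol mean. Within clusters it was 0.07 in cluster A and 0.94 in cluster B. The B2m differences were 0.21 (95% interval -0.16 to 0.58) with 1452428_a_at and 0.33 (-0.09 to 0.75) with 1449289_a_at. That of Ifit3 was 0.20 (-0.59 to 0.99). Among all probe sets 0% passed the adjusted threshold and 3.14% had an unadjusted p under 0.05, none of them a member. Doses differed between the drugs as the labels give them.

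Across mice of the same treatment, the class I chains varied together. One probe set per gene, that with the highest mean, was compared after group means were removed, for 28 pairs of 8 genes. B2m and H2-K1 had r = 0.742 (rho = 0.720, adjusted permutation p = 9.33e-05), B2m and H2-D1 had r = 0.721 (rho = 0.710, adjusted permutation p = 0.00021), and H2-D1 and H2-K1 had r = 0.755 (rho = 0.763, adjusted permutation p = 9.33e-05). Without the 2 arrays farthest from the median of the first gene named in each pair, these were 0.655, 0.672 and 0.761. In all, 6 of 28 pairs passed, and the other 3 were among Tap1, Irf7 and Bst2, the probe sets that follow the array background (r = 0.861 for Tap1 and Irf7). With quantile normalization these 3 were -0.616 for Tap1 and Irf7 (adjusted permutation p = 0.00161), 0.269 for Tap1 and Bst2 and -0.0005 for Irf7 and Bst2, so their sign or call was not kept, while the 3 class I pairs kept theirs with r between 0.677 and 0.724. The H2-K1 and H2-D1 probe sets can bind each other's transcripts, while B2m lies on another chromosome and encodes the light chain. By r with H2-K1, B2m had rank 6 among the 12943 other tested probe sets.

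By Pearson r, Ifit3 correlated with the class I chains past the threshold within cluster B and with cluster means removed, and not over all 30 arrays with group means removed. Over all 30 arrays its r was 0.302 with B2m, 0.178 with H2-D1 and 0.219 with H2-K1, none past the adjusted threshold, and without the 3 outlying arrays these were 0.383, 0.383 and 0.455. With cluster means removed in place of group means, they were 0.552, 0.695 and 0.688, with adjusted permutation p of 0.00574, 0.00118 and 0.00021. In that setting haloperidol mouse 2, alone in its cluster, has no deviation from its cluster mean in any gene. Differences between treatments stay in these values, so they are not comparable with those after removal of group means. Within cluster B, Ifit3 had r = 0.739 with B2m (rho = 0.721, adjusted permutation p = 0.0119), r = 0.771 with H2-D1 (rho = 0.774, adjusted permutation p = 0.0146) and r = 0.610 with H2-K1 (adjusted permutation p = 0.0492). For H2-K1 the rank correlation there was rho = 0.515, with an adjusted permutation p of 0.131 that did not pass. Without the 2 arrays farthest from the median of the class I gene of each pair, r in cluster B was 0.614 with B2m, 0.696 with H2-D1 and 0.311 with H2-K1. Leaving out extreme values of a gene can by itself lower r. What the relation with H2-K1 rests on therefore cannot be told from this value. Within cluster A the r values were 0.787 with B2m, 0.708 with H2-D1 and 0.876 with H2-K1, with adjusted permutation p of 0.158, 0.132 and 0.0519 over 11 arrays. By r only B2m and H2-K1 passed there, with r = 0.963 and rho = 1 (adjusted permutation p = 0.00644), while by rho Ifit3 also passed with B2m and with H2-K1 (rho = 0.891 and adjusted permutation p = 0.0435 for each). The difference in r between all arrays and single clusters was not tested. By r with B2m, Ifit3 had rank 68 among the 12943 other tested probe sets in cluster A, rank 27 in cluster B and rank 2655 over all arrays.

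**Figure D5:**
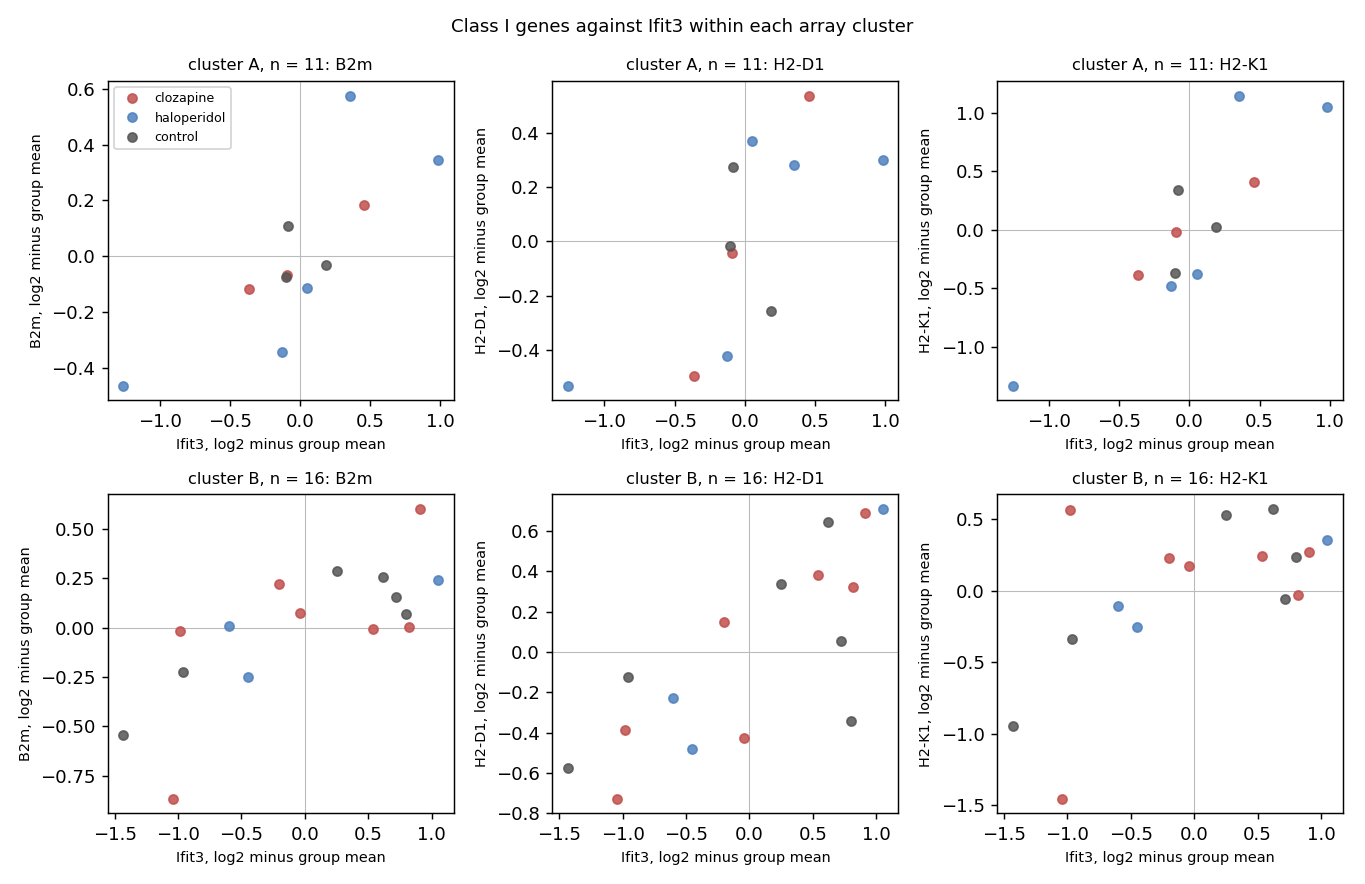
B2m, H2-D1 and H2-K1 (y axes, log2 value minus the group mean within the cluster) against Ifit3 (x axes, same scale) in the 11 arrays of cluster A (top) and the 16 arrays of cluster B (bottom), 1 point per mouse, coloured by clozapine, haloperidol and control. The r values were positive in both clusters, between 0.708 and 0.876 in cluster A and between 0.610 and 0.771 in cluster B. By r none of the pairs in cluster A passed the adjusted threshold, and by rho the pair with H2-K1 in cluster B did not.

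The probe sets of other genes most like B2m across the 30 arrays were all class I, and those most like H2-D1, H2-K1 and Ifit3 included other genes. By Pearson r on values minus the group mean, B2m was closest to H2-K1 1425336_x_at (0.742), H2-D1 1425545_x_at (0.721) and H2-K1 1451931_x_at (0.714). H2-D1 was closest to H2-K1 1451931_x_at (0.901), to Lgals3bp (0.869), which encodes a secreted galectin-binding protein, and to H2-K1 1427746_x_at (0.811). H2-K1 1425336_x_at was closest to Mgp (0.856), which encodes matrix Gla protein, to Rnf181 (0.805) and to H2-D1 (0.755). Ifit3 was closest to Trim30a (0.749), an interferon-induced gene, to Zfp292 (0.682) and to Cnot6 (0.679). These last values were 0.199, 0.119 and -0.010 in cluster A and 0.883, 0.735 and 0.508 in cluster B. Lgals3bp had r = 0.738 in cluster A and 0.934 in cluster B with H2-D1.

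The rest of the antigen processing pathway was measured unevenly. Of 12 further genes of class I antigen processing on the array, 7 were past the limit, among them Calr (12.02) and Canx (10.54), chaperones that fold heavy chains, Psme1 (8.77), a proteasome activator subunit, and Tapbp (7.37), which links class I to the transporter. The immunoproteasome genes Psmb8 (2.54) and Psmb9 (2.34) and the transporter gene Tap2 (2.15) were near background, as was Tap1, while Psmb10 was at 7.34. No gene of the list passed the test in any comparison. The list's median difference was 0.04 in clozapine against control, 0.08 in haloperidol against control and -0.04 in clozapine against haloperidol mice. The smallest p values in clozapine against control mice were those of Psmb10, with a difference of 0.18 (SE 0.173), Pdia3, a chaperone of the loading complex, with -0.37 (SE 0.359), and Canx with -0.22 (SE 0.231). In haloperidol against control mice they were those of the nonclassical heavy chain gene H2-M3 with 0.08 (SE 0.081), Calr with 0.09 (SE 0.092) and Tapbp with 0.12 (SE 0.177). In clozapine against haloperidol mice they were those of Pdia3 with -0.45 (SE 0.359), Psmb10 with 0.20 (SE 0.173) and Canx with -0.22 (SE 0.231). Each of these differences is under 2 times its SE.

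Of 38 interferon-stimulated effector genes on the array, 13 were past the limit and none passed the test. Ifitm3, which blocks virus entry, had the highest mean, 8.22, while antiviral genes such as Mx1 (3.23), Oas1a (3.26), Oasl2 (3.43), Usp18 (2.55) and Zbp1 (2.94) lay under the limit. Gbp3, which encodes a guanylate-binding protein, had the smallest p in clozapine against control mice, with a difference of 0.53 (SE 0.238, unadjusted p = 0.0344, adjusted p = 0.9997 in limma). Ifit2, of the same family as Ifit3, differed by -0.27 (SE 0.213) in clozapine and by -0.34 (SE 0.213) in haloperidol mice against controls. Cxcl10, a chemokine gene, differed by 0.25 (SE 0.192) in clozapine against control mice, and in haloperidol against control mice Ifitm2 differed by 0.44 (SE 0.246) and Trim25 by -0.17 (SE 0.128). In clozapine against haloperidol mice the smallest p values were those of Parp12 (0.56, SE 0.331), Gbp3 (0.37, SE 0.238) and Ifitm2 (-0.27, SE 0.246). The list's median difference was 0.10 in clozapine against control, -0.06 in haloperidol against control and 0.12 in clozapine against haloperidol mice.

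Genes of interferon signalling were present, with 15 of 17 past the limit, and none passed the test. Jak1 averaged 9.30, Irf1 6.001, Irf3 6.43, Ifnar1 5.18 and Ifnar2 6.37. Irf9, a transcription factor of the interferon response, had the smallest p in haloperidol against control mice, with a difference of 0.35 (SE 0.177, unadjusted p = 0.0545, adjusted p = 0.9999 in limma). In clozapine against control mice it was Ifnar1, a receptor subunit, with -0.47 (SE 0.285, unadjusted p = 0.112), followed by the inhibitor Socs3 (0.31, SE 0.189) and Irf2 (0.26, SE 0.181). Irf2 differed by 0.25 (SE 0.181) and Stat3 by -0.25 (SE 0.227) in haloperidol against control mice. In clozapine against haloperidol mice the kinase genes Tyk2 and Jak2 differed by 0.22 (SE 0.142) and 0.16 (SE 0.122), and Stat3 by 0.35 (SE 0.227). The median difference of these 15 genes was 0.07 in clozapine against control, 0.03 in haloperidol against control and 0.004 in clozapine against haloperidol mice. Among genes of nucleic acid sensing, 6 of 10 were past the limit. Tlr3, which senses double-stranded RNA, differed by 0.41 (SE 0.190, unadjusted p = 0.0382, adjusted p = 0.965 in limma) in clozapine against haloperidol mice, where the kinase gene Tbk1 differed by 0.31 (SE 0.235) and the adaptor gene Mavs by 0.15 (SE 0.199). Against controls, Mavs, Tlr3 and Tlr7 differed by 0.26 (SE 0.199), 0.23 (SE 0.190) and 0.24 (SE 0.209) in clozapine mice, and Tbk1, Tlr7 and Tlr3 by -0.28 (SE 0.235), 0.20 (SE 0.209) and -0.18 (SE 0.190) in haloperidol mice. Of 6 class II genes, 1 (H2-Ab1, at 4.80) was past the limit, and its differences lay between 0.04 and 0.11.

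Markers of the cells that carry class I were set beside these values. Of 13 microglial markers, 11 were past the limit, and their mean level ranged from 6.69 to 6.97 in clozapine mice, from 6.75 to 7.43 in haloperidol mice and from 6.63 to 7.03 in controls. Their median difference was -0.02 in clozapine and -0.01 in haloperidol against control mice. Of 13 markers of endothelium and pericytes, 10 were past the limit, with a mean level from 7.19 to 7.69 in clozapine mice, from 7.17 to 7.80 in haloperidol mice and from 7.24 to 7.80 in controls. In haloperidol against control mice, where B2m had its most negative value, 8 of these 10 had negative differences, with a median of -0.13. In clozapine against control mice 4 of these 10 were negative and 6 positive, with a median of 0.09, where 44.7% of all tested probe sets were negative. None passed the test in either comparison, and their part in the B2m values was not tested. Of the astrocyte markers 5 of 8 were negative in haloperidol against control mice (median -0.07), and of the choroid plexus markers 3 of 4 (median -0.09). The forebrain markers Ppp1r1b and Neurod6 differed by -0.02 and -0.27 there. None of these passed the test. All 5 neuronal markers tested had negative differences in haloperidol against control mice, with a median of -0.16 and none past the test. In that comparison 56.5% of all tested probe sets were negative. In clozapine against control mice 4 of these 5 were negative, with a median of -0.14, and Gad2, which encodes an enzyme of GABA synthesis, differed by -1.34 (SE 0.509, unadjusted p = 0.0135, adjusted p = 0.9997 in limma). Among lymphocyte markers the T cell genes Cd3e (2.85), Cd3g (2.35) and Cd8a (3.36) lay near background, while Cd4 (4.92), Ighm (4.89) and Ms4a1 (4.43) were past the limit. These 3 had positive differences against controls in both drug groups, with medians of 0.29 in clozapine and 0.18 in haloperidol mice, none past the test. Of all tested probe sets 55.3% were positive in clozapine and 43.5% in haloperidol against control mice. The smallest p of these 3 was that of Ighm in haloperidol against control mice (0.48, SE 0.242, unadjusted p = 0.0563, adjusted p = 0.9999 in limma). Of 3 red cell markers none was past the limit. Cx3cr1, a microglial receptor, differed by -1.06 (SE 0.396, unadjusted p = 0.0122, adjusted p = 0.9997 in limma) in clozapine against control mice. Its SD was 1.43 in clozapine mice and 0.31 in controls. Of the 11 microglial markers past the limit, 6 were negative and 5 positive in this comparison.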

How the data were processed

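Deposited values are log2 expression values, 1 per probe set and array, made by the authors with GCRMA per the submitters' processing notes, and labelled cRNA came from Trizol-extracted RNA per the labels' protocols. The GCRMA version and the scan dates are not stated in the sources used here. GCRMA compresses values near background. Values ran from 0.272 to 15.47 and array medians from 4.63 to 4.88. Of 22690 probe sets, 64 controls were left out. Platform annotation gave 20380 probe sets 1 symbol, 691 several and 1555 none. Groups came from the titles, 10 arrays each, and this number limits the precision. limma 3.58.1 (R 4.3.3, lmFit and eBayes) was fitted to all 30 arrays with a mean per group, two-sided, for probe sets with a mean of at least 4, with Benjamini-Hochberg adjustment over 12944 and calls at 0.05. Single values and correlations used 100000 permutations (Python 3.11.15, scipy 1.17.1). For correlations these were within treatment groups, or within clusters where cluster means were removed, with p adjusted over 28 pairs. Fits were tested on simulated data. Alternatives were no filter, quantile normalization, an RNA quality covariate, array weights, 3 kinds of block and leaving out arrays. The number of clusters, 4, was the smallest that gave at least 2 clusters of 6 or more arrays, a rule chosen after the arrays were seen. Members and gene lists were chosen with earlier results of these data known. All members were named, with the 3 most alike probe sets of other genes and, per list and comparison, the 3 genes with the smallest p; further list genes are named for their level. Protein sequences were not used here.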

Additional observations from a re-analysis of the deposited data

Results flagged for a closer look

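In 69 sets of 10 mice, 1 for each member probe set and group, 11 (15.94%) had a mouse far from the other 9 by Dixon's criterion, which chance alone meets in about 1 of 20. Among tested members, H2-D1 1451683_x_at was at 5.70 in clozapine mouse 1, where the next clozapine mouse had 4.97, and at 6.54 in control mouse 1, where the next control had 5.28. Control mouse 1 had the largest 3' minus 5' difference of all arrays, 4.09, and its part in this value was not tested.

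The other 9 were probe sets near background. Ifit1 was at 5.75 in haloperidol mouse 7, with the next haloperidol mouse at 2.15. H2-K1 1450534_x_at was at 4.68 and H2-D1 1425614_x_at at 4.12 in control mouse 5, and H2-D1 1427651_x_at was at 4.03 in haloperidol mouse 5. Clozapine mouse 3, on the clozapine array with the highest background (a median of 2.77 over probe sets under the limit), was high in 4: Irf7 at 2.25, Tap1 1449803_x_at at 2.34, Tap1 1448177_at at 1.89 and H2-D1 1451934_at at 1.74. Bst2 was at 2.45 in clozapine mouse 1.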

How the results depend on the processing

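No member passed the adjusted threshold in any of the 3 comparisons under any of the 11 alternative fits. The count over all probe sets stayed at 0 in each fit except with array weights, where 1731 of 12944 were called in clozapine against control mice, none of them a member, and 0 in the other comparisons. B2m 1452428_a_at stayed between -0.59 and -0.48 in haloperidol against control mice, with a lowest adjusted p of 0.153 in limma, and between -0.38 and -0.30 in clozapine against control mice. In clozapine against control mice signs turned for B2m 1449289_a_at (0.12 with array weights, 0.0059 with the cluster block, 0.011 without control replicate 1 and without the 3 outlying arrays, -0.0773 without either haloperidol array), H2-D1 1451784_x_at (0.022 with the cluster block, 0.033 without control replicate 1 and without the 3 arrays, -0.0479 without either haloperidol array), H2-D1 1451683_x_at (0.037 with array weights, 0.0043 without control replicate 1 and without the 3 arrays, -0.174 without either haloperidol array), H2-K1 1425336_x_at (0.084 with array weights) and Ifit3 (0.44 with array weights). Ifit3 also turned in haloperidol against control mice (0.18 with array weights) and in clozapine against haloperidol mice (-0.049 without haloperidol replicate 2, 0.319 without haloperidol replicate 7), where H2-K1 1451931_x_at turned with quantile normalization (-0.00049) and with the RNA quality covariate (-0.030). The cause was not tested. Array weights gave control mice 7 to 10 weights between 3.44 and 4.86, and control mouse 1 a weight of 0.212.

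Nothing in the labels says that mouse numbers mark shared mice or batches. Of 30 same-number pairs of arrays, 17 had deviations that correlated above 0.1 (median 0.165, lowest -0.501). Of 270 pairs with different numbers, 104 did (median -0.133). Arrays with the same number were thus more alike in the median, and what they share is not stated in the labels. The main test used no block for the number. With the number as a replicate block, 0 probe sets were called in each comparison, with 846, 540 and 642 at an unadjusted p under 0.05 in clozapine against control, haloperidol against control and clozapine against haloperidol mice. Of 28 member pairs, 6 correlated past the adjusted threshold, 7 with quantile normalization, 7 without the 3 outlying arrays, 10 with cluster means in place of group means, 1 within cluster A and 8 within cluster B. Arrays are few per cluster, and the compressed values near background limit what Tap1, Irf7, Ifit1 and Bst2 can show.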
